A study of Mus musculus and Rattus norvegicus with 6 samples.

Results

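The liver of leptin-deficient mice was compared with that of wild-type (WT) mice at the time when the deficient animals had just been given the missing hormone. The comparison uses 2 of the 6 arrays of the study, chosen by their titles: Lepob/Lepob mice given leptin, and WT mice given saline. The mutant mice were homozygous for Lepob, an allele that leaves them without functional leptin, and received recombinant murine leptin by the intraperitoneal route at a dose that the labels write as 1 microg/mg. The WT mice were control littermates that received saline by the same route. Both groups were male, 20 weeks old and of C57/BL6J background, and liver was taken 6 h after the injection. Each group is 1 Affymetrix array of total RNA, and the labels do not say if that RNA came from a single animal or from pooled livers. The groups therefore differ in genotype and in the injected agent at once, and these cannot be told apart here. The saline-injected mutant array was not used, so a value below says what differed from WT after leptin and not what leptin did. The same comparison in rats, Lepmkyo/Lepmkyo given leptin against WT given saline on an F344/NSlc background, is set beside it at the end. The rats, too, were males 20 weeks old, the WT rats were littermates, and liver was sampled 6 h after intraperitoneal saline or murine leptin at the same stated dose.

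Leptin is secreted by fat cells in proportion to the fat they hold, and acts mainly on the hypothalamus through its receptor, the kinase JAK2 and the transcription factor STAT3. Animals without it overeat, become obese and insulin resistant, and store triglyceride in hepatocytes. In liver, the genes best known to follow this state are those of lipid droplets, fatty acid oxidation, sterol synthesis, the growth hormone axis and the circadian clock.

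With 1 array per group no replicate spread could be measured, no test was possible, and no p-value or error over animals is given. The values are signal intensities, the brightness of a probe set on a linear scale. A signal floor of 85.3, the median of all values on both arrays, stood in for the limit of detection. The probe set with the highest mean signal stood for its gene, and lower values were raised to the floor before the ratio of mutant to WT was taken. Where that happened the ratio is a bound, written as "at least". Of 18193 genes with a probe set, 11856 were measured, meaning that at least 1 array reached the floor. In the leptin-injected mutant liver 878 genes (7.41%) lay 2-fold or more from WT, 467 of them higher (3.94%) and 411 lower (3.47%). These shares are the background for the counts of each gene list below. At 4-fold or more, 88 genes (0.742%) were higher and 53 (0.447%) lower, and at 16-fold or more 11 were higher and 6 lower. Over all 11856 genes the median log2 ratio was -0.03. The trimmed mean signal was 496 on both arrays, but the median was 91.9 in WT and 79.1 in the mutant. If the arrays are instead centred on their medians, the median log2 ratio of all genes shifts by 0.21 and 76.2% of the 2-fold genes are higher in the mutant, against 53.2% as deposited. After quantile normalization that share was 61.8%, and with a floor at the 25th percentile it was 40.8%.

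**Figure D1:**
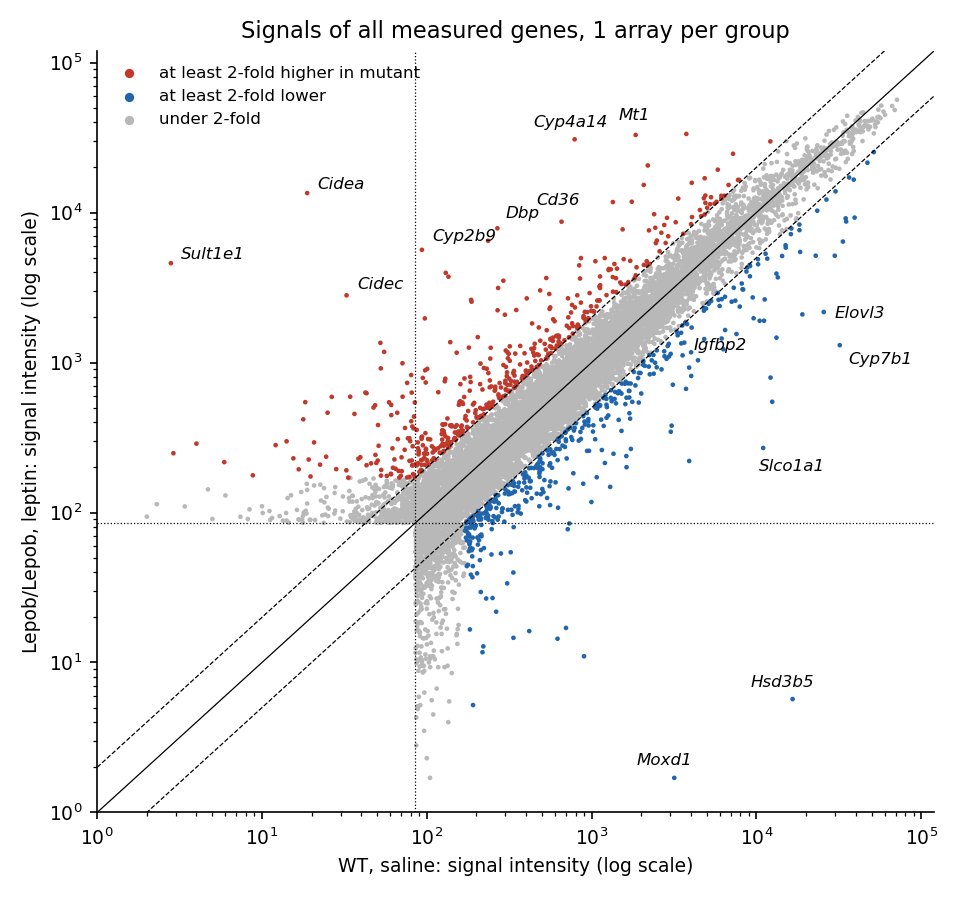
Signal intensity of every measured mouse gene on the WT saline array (horizontal, log scale) and the Lepob/Lepob leptin array (vertical, log scale), 1 point per gene and 1 array per group. Red points are at least 2-fold higher and blue points at least 2-fold lower in the mutant, the solid line marks equal signals, the dashed lines 2-fold, and the dotted lines the floor of 85.3. Most genes lie between the dashed lines, and Cidea, Sult1e1, Hsd3b5 and Moxd1 stand farthest from them with 1 array under the floor.

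The plot of all signals shows a narrow cloud with few genes far from it. The only measure of error at hand is technical: the log2 ratios of different probe sets of the same gene had an SD of 0.44, pooled over 5287 genes. That spread holds nothing of the variation between animals. Of the 467 higher genes, 191 had another measured probe set, which lay above 0 for 160 and at 2-fold for 74. Of the 411 lower genes, 163 had another one, which lay below 0 for 144 and at 2-fold for 62. The liver label was checked against its markers: the 16 measured hepatocyte markers had WT signals of 10564 (Asgr1) to 66649 (Apoa1), and none was 2-fold apart between groups. Transcripts of the Y chromosome were present on both arrays and Xist, which marks an inactive X chromosome, was under the floor with signals of 54.3 and 38.6.

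The leptin pathway was checked next. Lep, the leptin gene, is a product of fat cells and had signals of 4.0 in WT and 2.8 in the mutant, both far under the floor, so these arrays give no check of the Lepob allele. Of 21 measured genes of the leptin receptor and STAT3 list, 3 stood 2-fold or more above WT and 2 as far below, with a median log2 ratio of -0.06 that is above 0 when arrays are centred on their medians. These 5 genes compare with 7.41% of all genes. Lepr, the leptin receptor, had a signal of 82.1 in WT and 276 in the mutant, at least 3.24-fold higher, but its other probe sets had log2 ratios of -0.16 to 0.42. Jak2, the kinase bound to the receptor, lay at -0.30 and Stat3, the factor it activates, went from 2641 to 1884 (1.40-fold lower). Among the inhibitors of the pathway, Socs3 had signals of 609 and 855 (1.40-fold higher), and the phosphatase Ptpn1 lay at 0.13. The values of Jak2, Stat3, Socs3 and Ptpn1 were all under 2-fold. Cebpd, a transcription factor induced by STAT3, was higher at 302 against 1203 (3.99-fold higher), with another probe set at 0.57. Junb, an early response gene, was lower at 326 against 104 (3.13-fold lower), and Irs2, the adaptor that couples the insulin receptor to its kinase cascade, was at least 2.23-fold lower at 190.2 against 81.4, but under 2-fold on log2 of signal plus floor.

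Genes of the lipid droplet, the organelle that holds triglyceride, were among the farthest from WT. Of the 18 measured on the lipid droplet list, 7 stood 2-fold or more above WT and none below, and the median log2 ratio was 0.76. The CIDE proteins, which join droplets and let them grow, were not alike. Cidea had a signal of 18.8 in WT and 13498 in the mutant, at least 158-fold higher. Cidec went from 32.6 to 2808 (at least 32.9-fold higher), while Cideb, the form that hepatocytes normally carry, had 8088 and 8036. Thus the CIDE genes typical of fat cells were under the floor in WT and bright in the mutant, and the liver form was level. Perilipins coat the droplet and control access of lipases. Plin4 was 13.6-fold higher at 187 against 2545, Plin5 had a log2 ratio of 0.95 and Plin2, already bright in WT at 15354, one of 0.68. Fitm1 and Fitm2, membrane proteins that help droplets form, were 3.12-fold higher and 2.20-fold higher. The enzymes that empty the droplet were mixed: Mgll, the monoacylglycerol lipase, was 2.66-fold higher at 3240.1 against 8625, and G0s2, an inhibitor of adipose triglyceride lipase, 2.37-fold higher at 4906 against 11608. Pnpla2, that lipase itself, had signals of 974 and 980.0, and its activator Abhd5 a log2 ratio of -0.49.

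Uptake and esterification genes were split between a few large differences and a level remainder. The uptake and activation list held 4 of 15 genes above WT at 2-fold and 1 below, with a median of -0.08 whose sign turns in some settings. Cd36, the fatty acid translocase of the plasma membrane, went from 657 in WT to 8695 (13.2-fold higher), and its other probe sets had log2 ratios of 3.83 to 4.31. Vldlr, the very low density lipoprotein receptor, was at least 11.6-fold higher at 71.2 against 989, although its other probe sets lay at 0.04 to 1.35. The fatty acid binding proteins differed in both directions. Fabp2, the intestinal form, was 3.90-fold higher at 4054 against 15796, and Fabp4, the adipocyte form, 2.79-fold higher at 1125 against 3138, with other probe sets at 0.03 to 1.19. Fabp5, the epidermal form, was 4.89-fold lower at 7576 against 1550.1, and Fabp1, the liver form and the brightest gene of the list, lay at -0.34.

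The triglyceride synthesis list held 4 of 15 genes above WT at 2-fold and none below, with a median of 0.30. Gpat3, which adds the opening acyl chain to glycerol phosphate, was 20.2-fold higher at 97.3 against 1969. Mogat1, a monoacylglycerol acyltransferase, was at least 10.7-fold higher at 52.6 against 915, and Mogat2 at least 2.69-fold higher. The enzymes of the last step, Dgat1 and Dgat2, lay at 0.50 and -0.27, and the lipins Lpin1 and Lpin2 at -0.10 and 0.64. The transcription factors that drive such genes differed as well. Pparg, the master regulator of fat cell genes, went from 222 to 919.6 (4.14-fold higher), and Ppara, its counterpart in fatty acid oxidation, from 2229.8 to 7609.8 (3.41-fold higher), with other probe sets of Ppara at 0.62 to 0.81.

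Genes of fatty acid breakdown outside the mitochondrion were higher in part. Of 21 genes of peroxisomal oxidation, omega-hydroxylation and acyl-CoA hydrolysis, 10 stood above WT at 2-fold and 1 below, and the median was 0.84. The 8 measured thioesterases had a median of 1.75 and the 8 peroxisomal genes one of 0.52. Cyp4a14, a cytochrome that hydroxylates the far end of fatty acids, went from 789 to 30799 (39.0-fold higher) and was among the brightest transcripts of the mutant array. Its relative Cyp4a12a, which male mice express, was 2.48-fold lower at 15045 against 6056. Cyp4a genes and Acot genes are close copies, and probe sets of such families can share targets. The acyl-CoA thioesterases release free fatty acids from their CoA esters. Acot3 was 27.6-fold higher at 135 against 3737, Acot2 6.63-fold higher at 404 against 2679, Acot1 4.49-fold higher and Acot4 4.38-fold higher. Acot6 was at least 2.59-fold higher at 78.5 against 221, with another probe set at -0.16, and Acot8, Acot12 and Acot13 were under 2-fold. Vnn1, the pantetheinase that yields a CoA precursor, was 7.37-fold higher at 2072 against 15283, and Pex11a, which divides peroxisomes, 2.99-fold higher at 2761 against 8267. Abcd2, a peroxisomal importer of very long chain acyl-CoA, was at least 7.39-fold higher at 42.4 against 630.3. Among the beta-oxidation enzymes of the peroxisome, the thiolase Acaa1a was 2.28-fold higher at 894 against 2042, with another probe set at 0.42, while Hsd17b4 lay at 0.71, Ehhadh at 0.34 and the thiolase Acaa1b at 0.06.

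Mitochondrial fatty acid oxidation and ketogenesis had 16 of 19 genes above 0 and a median of 0.53, but only 2 at 2-fold. Slc25a20, the carnitine-acylcarnitine carrier, was 2.25-fold higher at 6782 against 15288, and Eci2, an enoyl-CoA isomerase, 2.65-fold higher at 4902 against 12992. Cpt1a, the entry enzyme of the pathway, had signals of 7218 and 10856 (log2 ratio 0.59), but its other probe sets lay higher, at 1.03 to 1.46. The medium chain dehydrogenase Acadm lay at 0.73. Oxidative phosphorylation served as a contrast within the same organelle: none of 36 subunit genes was 2-fold apart, and their median was 0.06.

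**Figure D2:**
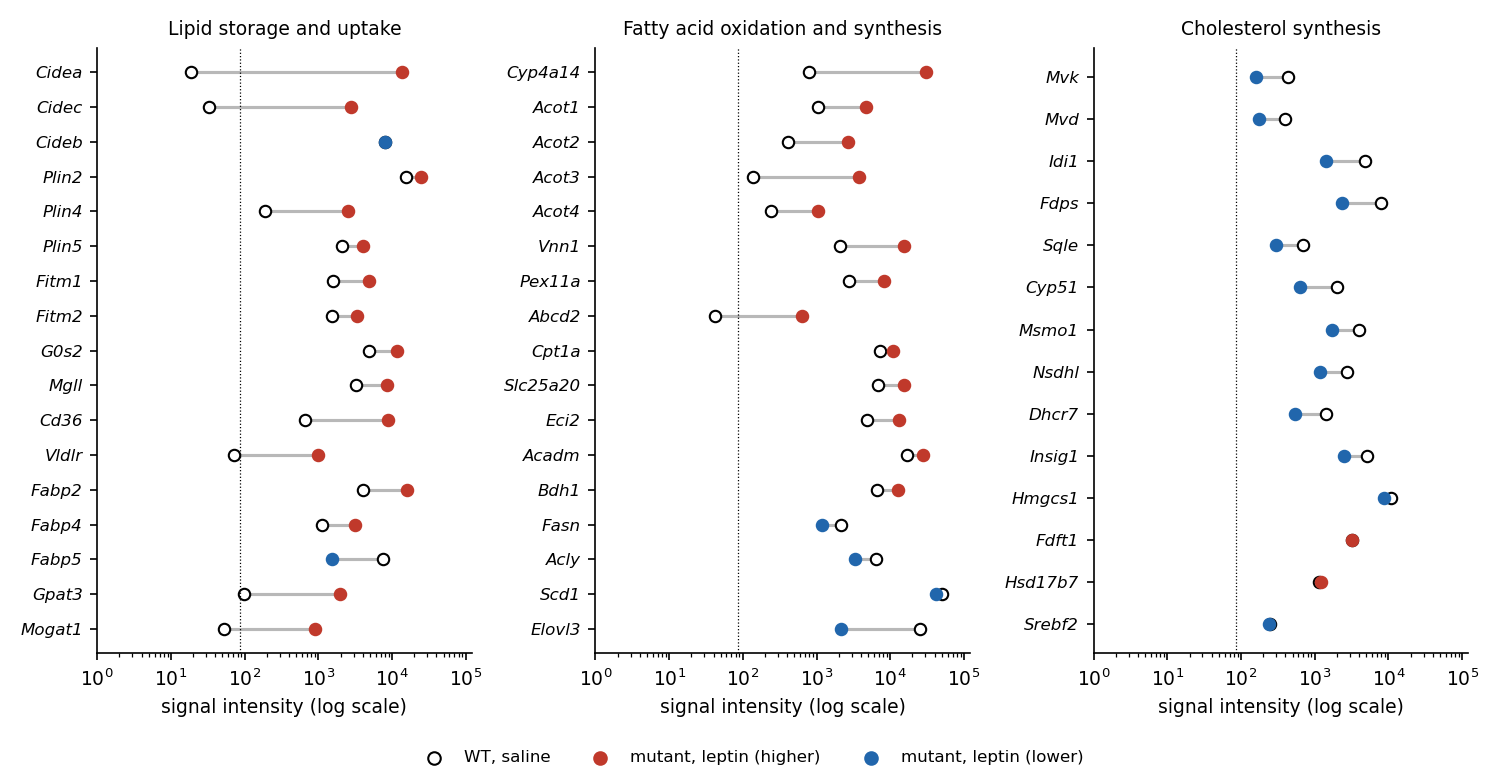
Signal intensity (log scale) of genes of lipid storage and uptake (left), fatty acid oxidation and synthesis (middle) and cholesterol synthesis (right) on the WT saline array (open circles) and the Lepob/Lepob leptin array (filled, red where higher and blue where lower), 1 array per group; the dotted line is the floor of 85.3. Most storage, uptake and omega-hydroxylation genes lie to the right of WT, Elovl3 and most sterol genes to the left, and Cideb, Srebf2 and the brightest probe sets of Fdft1 and Hsd17b7 are near WT.

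Fatty acid synthesis genes did not stand higher along with those of storage. Among 21 measured, 1 exceeded WT at 2-fold and 2 lay below at 2-fold, the median was -0.26, and the 8 enzymes that make palmitate or supply its precursors had a median of -0.71. Fasn, fatty acid synthase, went from 2167 to 1182 (1.83-fold lower), Acacb lay at -0.97 and Acly, the ATP citrate lyase, at -0.94, each just under the 2-fold line. The regulators were split. Srebf1, the insulin-responsive activator of lipogenesis, was 1.05-fold higher at 3625 against 3794, whereas Mlxipl, the carbohydrate response element binding protein, was 2.15-fold lower at 8706 against 4045. Scd1, the main stearoyl-CoA desaturase of liver, had 50563 and 42255 (1.20-fold lower), near the top of the signal range. Scd2, its form in brain and in immature liver, was 2.19-fold higher at 239 against 523. Elovl3, an elongase of very long chains that male mice express, was 11.8-fold lower at 25627 against 2173, while Elovl5 and Elovl6 lay at 0.71 and -0.27. The other genes that make palmitate or supply its precursors were split. Acaca, the main acetyl-CoA carboxylase of lipogenesis, lay at 0.23, Me1 at 0.10 and Pklr at 0.44. Slc25a1 and Acss2 lay below 0, at -0.64 and -0.79. The desaturases Fads1 and Fads2 lay on either side at -0.70 and 0.44.

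Cholesterol synthesis was lower along nearly the whole pathway. Of 22 measured genes of the cholesterol list, 10 were at least 2-fold lower and none higher, 20 lay below 0, and the median was -0.97. In the mevalonate part, Mvk, mevalonate kinase, was 2.64-fold lower at 428 against 162, Idi1, which isomerises the isoprene unit, 3.36-fold lower at 4825 against 1434, and Fdps, farnesyl diphosphate synthase, 3.36-fold lower at 7932 against 2361. Hmgcs1, the synthase that opens the pathway, was nearer to WT at -0.33. In the sterol part, Cyp51, the lanosterol demethylase, was 3.22-fold lower at 2002 against 622, Dhcr7, the reductase of the last step, 2.63-fold lower at 1406 against 535, and Sqle, squalene epoxidase, 2.34-fold lower. Fdft1 lay at 0.02 and Hsd17b7 at 0.07, but their other probe sets lay below 0, at -0.48 and -0.67 to -0.34. The pathway is switched on by SREBP2, the product of Srebf2, when sterols are low. Srebf2 itself had signals of 246 and 241, and Insig1, which holds SREBP in the endoplasmic reticulum and is one of its targets, was 2.08-fold lower at 5130.0 against 2464.

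The promoters of these genes are known for boxes that bind NF-Y, a factor that acts together with SREBP. The letters CCAAT were searched on both strands in 300-base windows around the start site (250 bases before to 50 after), from RefSeq sequence of GRCm38.p6. Of the 19 cholesterol genes with a window, 17 held at least 1 match, against 37.4% of all 32851 windows. A gene counted if any of its windows matched, whereas the background is a share of single windows, so the units differ. Of these 17 genes 16 lay below 0 and 8 were at least 2-fold lower. The stretches upstream of Idi1, Cyp51 and Mvk are shown because they were among the genes farthest below WT, and that of Hsd17b7 because it held matches and its brightest probe set was near WT, with others at -0.67 to -0.34. Each is written 5′ to 3′ on the strand of the gene with the matches in capitals (ATTGG is CCAAT on the other strand): Idi1 at chr13:8885541-8885605 on the plus strand, Cyp51 at chr5:4104702-4104746 on the minus strand, Mvk at chr5:114444076-114444268 on the plus strand and Hsd17b7 at chr1:169969206-169969390 on the minus strand.
Idi1: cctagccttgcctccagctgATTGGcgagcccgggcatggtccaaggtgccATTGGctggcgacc
Cyp51: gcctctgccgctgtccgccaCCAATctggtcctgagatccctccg
Mvk: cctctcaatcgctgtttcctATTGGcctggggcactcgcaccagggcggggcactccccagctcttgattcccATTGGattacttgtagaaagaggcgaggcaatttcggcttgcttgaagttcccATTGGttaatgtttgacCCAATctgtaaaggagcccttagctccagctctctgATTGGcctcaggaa
Hsd17b7: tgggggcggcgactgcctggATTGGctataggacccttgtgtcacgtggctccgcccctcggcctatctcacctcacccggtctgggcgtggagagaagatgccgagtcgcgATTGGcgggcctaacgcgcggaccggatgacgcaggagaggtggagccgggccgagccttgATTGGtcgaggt
Mvk holds 5 matches, Hsd17b7 3, Idi1 2 and Cyp51 1, so the number of matches did not follow the size of the ratio among these. A match describes the letters only and is no shown binding site.

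Most glucose genes were under 2-fold, as were 92.6% of all genes. In the gluconeogenesis and fasting list 2 of 17 genes exceeded WT at 2-fold and 1 lay below at 2-fold, and the median was -0.00. Pck1, which makes phosphoenolpyruvate from oxaloacetate, had signals of 25389 and 25754, with another probe set at -2.16, and G6pc, the glucose-6-phosphatase that releases glucose, 11794 and 8886 (1.33-fold lower). Pcx, pyruvate carboxylase, was 2.06-fold higher at 5732 against 11796, and Gpt2, an alanine transaminase, 3.42-fold higher at 7217 against 24674. The probe sets of Pck1 thus disagree, the brighter at WT level and the dimmer lower, and no direction is given for it. The genes of glucose, fructose and pentose phosphate use had 18 of 21 above 0 and a median of 0.28, but 1 at 2-fold: Hk2, the hexokinase of muscle and fat, at 176 against 371 (2.11-fold higher), which was under 2-fold on log2 of signal plus floor. Of 27 amino acid and urea genes only Cbs, the enzyme that condenses homocysteine with serine, was 2-fold apart, at 8156 against 3365 (2.42-fold lower), and the median was -0.08 (above 0 with arrays centred on their medians). Mat1a, which makes the methyl donor S-adenosylmethionine, was the largest the other way at 0.98.

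Growth hormone signalling showed a broad set of lower signals. Growth hormone acts on liver through its receptor and STAT5 to induce Igf1 and the feedback inhibitors Socs2 and Cish. In this list 7 of 18 genes lay below WT at 2-fold and 1 above, with a median of -0.48. Igfbp2, an IGF binding protein whose liver transcript is known to be low in leptin deficiency and to respond to leptin, had 13241 in WT and 1466 in the mutant (9.03-fold lower). Socs2 was 5.60-fold lower at 3742 against 668, with other probe sets at -2.09 to -0.23, and Cish 3.52-fold lower at 1460.5 against 415. Both feedback genes were lower while the receptor Ghr was level at -0.19. Stat5b went from 1178 to 580.5 (2.03-fold lower), and Igfals, which holds IGF in the circulating complex, from 2056 to 965 (2.13-fold lower). Igf1 itself was 1.29-fold lower at 17086 against 13241, and Igfbp1, the form that insulin represses, 1.51-fold lower. Egfr, the epidermal growth factor receptor, was 9.08-fold lower at 19015 against 2094, with other probe sets at -2.98 to -0.14. Igfbp5 was the member at 2-fold the other way, at 197 against 461 (2.34-fold higher).

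Male mice release growth hormone in pulses, and the liver genes that follow the pulses take a male level, while others are held down by them and take a female level. Both groups of mice were labelled male, yet the leptin-injected mutant liver lay on the female side of WT for most of the genes listed here. Of 20 measured male-biased genes, 16 lay below WT at 2-fold and none above, and the median was -2.75, the lowest of all the lists. This list and the female-biased one, like all 40 gene lists used here, were drawn up with earlier results of these data known. The counts, medians and ranks of all these lists are therefore descriptions and no independent evidence. Hsd3b5, a steroid reductase of male liver, had 16593 in WT and 5.7 in the mutant, at least 195-fold lower. Slco1a1, an organic anion transporter, was 40.8-fold lower at 11001 against 269, and Cyp7b1, an oxysterol and androgen hydroxylase, 24.6-fold lower at 32075 against 1306. Moxd1, a monooxygenase, was at least 37.2-fold lower at 3176 against 1.7. Of these genes, Hsd3b5 and Moxd1 were thus under the floor in the mutant, while Slco1a1 and Cyp7b1 stayed above it. Some bright members of the list differed less, such as Cyp2d9 at 34907 against 21741 and Gstp1 at 52846 against 37163. Serpina4-ps1 (22.8-fold lower), the glucuronosyltransferase Ugt2b38 (17.7-fold lower) and the major urinary protein Mup10 (15.4-fold lower) were far lower too. Mup3, a close copy of Mup10, lay at 0.32 by its brightest probe set and at -1.52 by another. Mup and Ugt2b genes are large families of near-identical copies, so a value may belong to a relative.

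Among 21 measured female-biased genes 14 lay above WT at 2-fold and none below, and the median was 1.26. Sult1e1, the estrogen sulfotransferase, had 2.8 in WT and 4601 in the mutant, at least 53.9-fold higher. Cyp2b9 was 60.4-fold higher at 93.4 against 5645, and its relative Cyp2b13 at least 5.88-fold higher at 47.5 against 501. Cyp17a1, a steroid hydroxylase and lyase, was 14.1-fold higher at 186 against 2618, and the drug efflux pump Abcb1a at least 6.37-fold higher at 59.0 against 543. Not all members lay that way. Cyp2b10, a close relative of Cyp2b9 induced by drugs, had 2389.8 and 2355, Cyp3a44 lay at -0.73, and Cux2, the transcription factor that marks female liver, at 0.38. The list also overlaps with others: Cyp4a14, Acot3 and Abcd2 are counted among the oxidation genes as well.

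**Figure D3:**
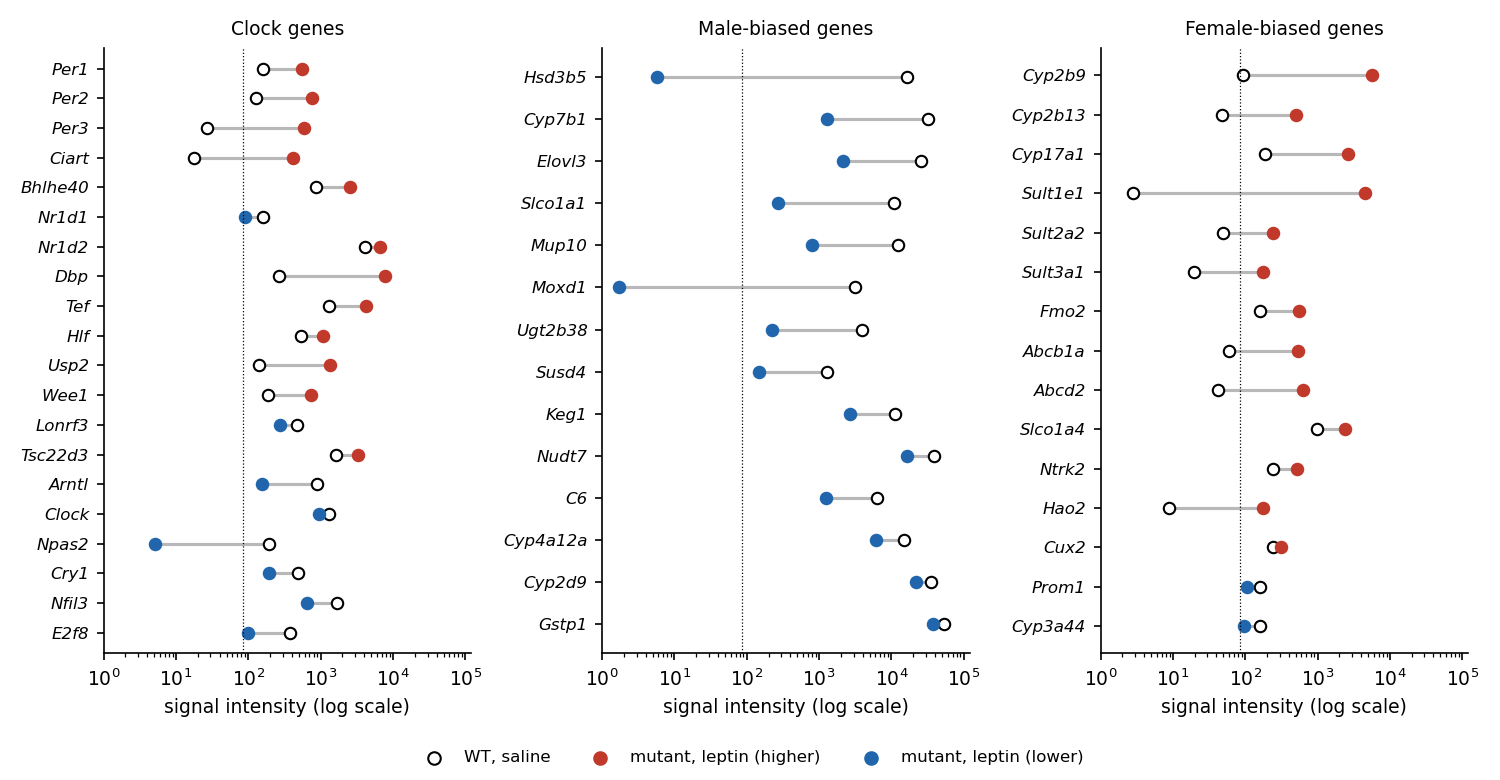
Signal intensity (log scale) of clock genes (left), male-biased genes (middle) and female-biased genes (right) on the WT saline array (open circles) and the Lepob/Lepob leptin array (filled, red where higher and blue where lower), 1 array per group; the dotted line is the floor of 85.3. Among the genes drawn, Per and Dbp family genes lie to the right of WT and the Arntl group to the left, male-biased genes lie to the left and most female-biased genes to the right. Mup3 of the male-biased list and Gys2 of the BMAL1 list are not drawn, and each was the only measured member of its list above 0.

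Both arms of the circadian clock differed, in opposite directions. In this feedback loop ARNTL (BMAL1) and CLOCK switch on the Per genes and Dbp, whose products peak when Arntl is low. Of 14 measured genes of the Per and Dbp arm, 11 stood above WT at 2-fold and none below, and the median was 1.73. Dbp, a transcription factor that carries the rhythm to metabolic genes, went from 268 to 7859 (29.3-fold higher), with another probe set at 4.61. Per2 was 5.83-fold higher at 129 against 749.9, Per3 at least 6.92-fold higher at 26.5 against 590.4, and Per1 3.46-fold higher at 158 against 546. Usp2, a rhythmic deubiquitinase, was 9.85-fold higher at 139 against 1368, and Ciart, a repressor of the loop, at least 4.90-fold higher. Exceptions were Nr1d1, the repressor of Arntl, at 158 against 89.3, and Lonrf3 at -0.80. Of 8 measured genes of the opposite arm, 5 lay below at 2-fold and none above, and the median was -1.25. Arntl was 5.72-fold lower at 889.7 against 156, with another probe set at -1.05, and Npas2, a relative of Clock that pairs with ARNTL, was at least 2.24-fold lower at 191 against 5.2. Nfil3, a repressor of the sites that DBP activates, was 2.61-fold lower at 1686 against 647, and the cell cycle repressor E2f8 3.78-fold lower at 372 against 98.4. Clock lay at -0.47, and Gys2 was the only measured member of this arm above 0, at 0.73. The labels give the time from injection to sampling but not the hour of day, for neither group, so a difference in hour cannot be told apart from one of genotype or treatment.

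Protein folding genes of the endoplasmic reticulum were slightly lower as a list. Of 24 measured genes, 21 lay below 0 and 4 were at least 2-fold lower, none higher, with a median of -0.36. Derl3, a channel protein that returns misfolded proteins to the cytosol, was 4.42-fold lower at 1154 against 261, and the chaperone cofactor Sdf2l1 2.67-fold lower at 2484 against 929.7. Pdia6, a disulfide isomerase, was 2.31-fold lower at 7289 against 3153, with another probe set at -0.78. Ern1, the sensor IRE1, was 2.05-fold lower at 3288 against 1604, with other probe sets at -1.83 to -0.03. The main chaperones differed less: Hspa5 (BiP) had 25943 and 18609.7, and Hsp90b1 lay at -0.37. Herpud1, a degradation factor, was the largest above 0 at 0.75. Transcripts this bright have a background of their own: the 203 genes with a mean signal over 20000 had a median of -0.15, and 140 of them lay below 0. Few folding genes reach that signal, while most acute phase and hepatocyte markers do.

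The folding genes share a known control element, the endoplasmic reticulum stress element which reads CCAAT and CCACG with 9 bases of any kind between them, searched on both strands. It was held by 9 of 21 members with a window, against 39 of 32851 windows overall (0.119%), again genes beside single windows. The 9 genes with a match had a median of -0.36, all below 0, and the 12 without one a median of -0.37, 10 below 0, so the match did not go with the size of the ratio. The stretches of the members farthest below WT that hold it are shown with the element in capitals, 5′ to 3′ on the strand of the gene: Pdia6 at chr12:17266471-17266529 and Derl3 at chr10:75893222-75893280, both on the plus strand, where Derl3 carries the element on the other strand. The element begins with the CCAAT letters searched above.
Pdia6: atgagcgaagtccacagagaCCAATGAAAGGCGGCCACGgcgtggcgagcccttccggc
Derl3: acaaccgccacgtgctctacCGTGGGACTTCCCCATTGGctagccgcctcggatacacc
Genes of the ATF4 branch, which answers to amino acid shortage, were not lower with them. Of 18 measured, 3 stood above WT at 2-fold and 1 below, and the median was 0.22. Trib3, a pseudokinase that restrains insulin signalling, went from 277 to 731 (2.64-fold higher), Ddit4, an inhibitor of mTOR, from 449 to 1118 (2.49-fold higher), and the factor Atf5 from 5573 to 11479.8 (2.06-fold higher). Mthfd2, a mitochondrial folate enzyme, was 2.23-fold lower, with another probe set at 0.23. Atf4 lay at -0.24.

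Acute phase proteins were close to WT apart from a few members. Of 26 measured, 3 stood above WT at 2-fold and 2 below. In all 22 had a log2 ratio under 0, and the median was -0.18 beside the -0.15 of bright genes in general (above 0 with arrays centred on their medians). The serum amyloids stood on the lower side: Saa2 had 35059 in WT and 8722 in the mutant (4.02-fold lower), and Saa1 51623 and 25302 (2.04-fold lower), with another probe set of Saa1 at -0.73 and a ratio under 2-fold after quantile normalization. Saa1 and Saa2 are near-identical and share sequence. On the higher side stood Lcn2, a siderophore-binding protein, at 1753 against 11808 (6.73-fold higher), Orm3, an orosomucoid, at 212 against 984 (4.65-fold higher), and Apcs, serum amyloid P, at 5308 against 12665 (2.39-fold higher). Haptoglobin (Hp), hemopexin (Hpx) and the fibrinogen chains lay between -0.33 and -0.17.

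Secreted regulators of metabolism, the hepatokines, differed in both directions, with 3 of 19 exceeding WT at 2-fold, 4 below at 2-fold and a median of -0.23. Fgf21, a fasting hormone, went from 180.0 to 1258 (6.99-fold higher), and Inhbe, an activin chain, from 819 to 2809 (3.43-fold higher). Enho, which encodes adropin, was at least 10.5-fold lower at 899.6 against 11.0, with other probe sets at -3.11 to -0.04. The activin chain Inhba was 3.42-fold lower at 1052 against 308, the activin antagonist Fst 2.47-fold lower, and Angptl8, an insulin-induced inhibitor of lipoprotein lipase, 2.43-fold lower at 1915 against 788.

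**Figure D4:**
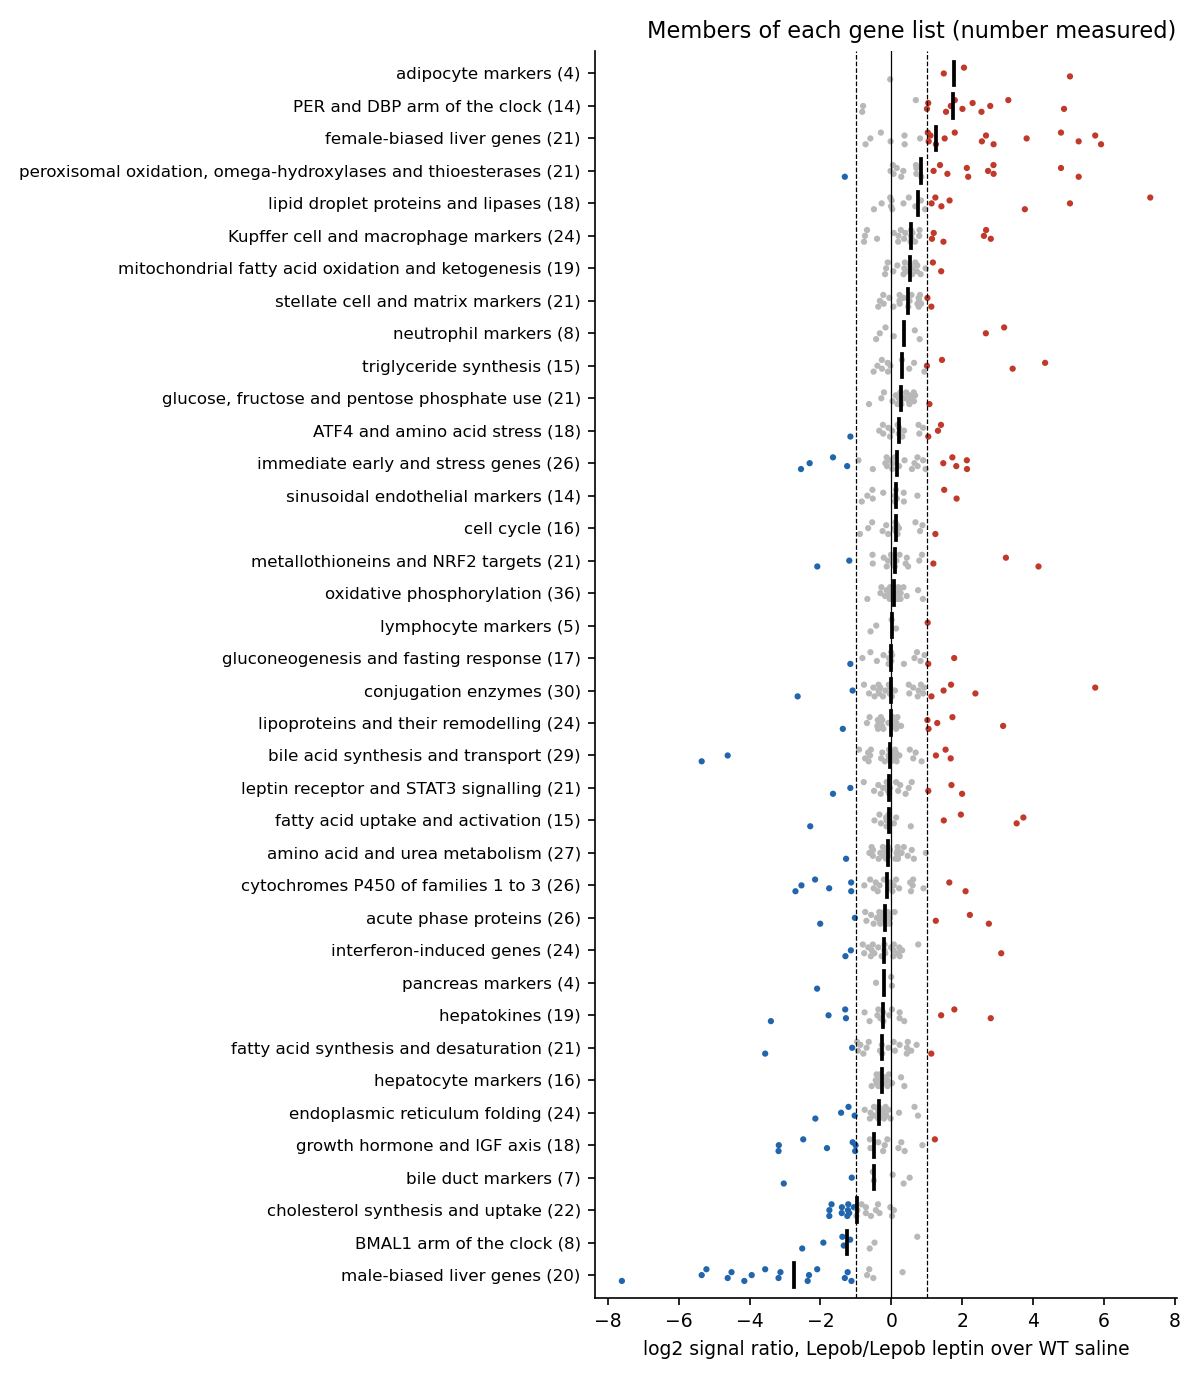
Log2 signal ratio of Lepob/Lepob leptin over WT saline (horizontal) for each measured member of the gene lists, which are ordered by their median (black bar), 1 array per group. Red and blue points are at least 2-fold higher and lower, and the dashed lines mark 2-fold. The male-biased list has the lowest median at -2.75, and the cholesterol and BMAL1 lists follow it, while the Per and Dbp list and the female-biased list lie above 1.

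Lipoprotein genes were mostly level, with 5 of 24 exceeding WT at 2-fold, 1 below at 2-fold and a median of -0.02. Apoa4, an apolipoprotein of triglyceride-rich particles, went from 3759 to 33460.1 (8.90-fold higher), Apoc2, the activator of lipoprotein lipase, from 12156 to 29838 (2.45-fold higher), and Pltp, the phospholipid transfer protein, from 1274 to 4206 (3.30-fold higher). Apom, which carries sphingosine 1-phosphate, was the member at 2-fold the other way, at 15078 against 5836 (2.58-fold lower). Apob and Mttp, which build the particle, lay at 0.27 and 0.14. Bile acid genes had 3 of 29 above WT at 2-fold, 2 below and a median of -0.03, beside 3.94% and 3.47% of all genes. Cyp7a1, the rate-limiting enzyme of bile acid synthesis, was 2.89-fold higher at 1116 against 3222, but another probe set lay at 0.02. Abcc4, an exporter in the basolateral membrane, was 3.19-fold higher at 166 against 529. The 2 lower members, Slco1a1 and Cyp7b1, are the male-biased genes given above.

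Drug-metabolising cytochromes of families 1 to 3 had 6 of 26 below WT at 2-fold and 2 above, with a median of -0.12 that is above 0 when arrays are centred on their medians. Cyp1a2, which oxidises caffeine, was 4.44-fold lower at 22922 against 5158, Cyp2c55 6.52-fold lower at 1732 against 266, and Cyp2c70, which makes the muricholic acids of mouse bile, 5.80-fold lower at 29908 against 5156. Cyp2c38 and Cyp2c39 were 4.27-fold higher and 3.11-fold higher. The Cyp2c genes are close copies and may share probe set targets. Among 30 conjugation enzymes 5 stood above WT at 2-fold and 2 below, with a median of -0.01, and apart from Sult1e1 those that were higher belonged to the glutathione transferases: Mgst3 at 554 against 2867 (5.18-fold higher), Gstm3 (3.21-fold higher), Gstm2 (2.78-fold higher) and Gstt2 (2.19-fold higher). Sult5a1 was 6.25-fold lower at 1074 against 172. The list of metallothioneins and NRF2 targets had 3 of 21 genes above WT at 2-fold, 2 below and a median of 0.10. The metallothioneins, which bind zinc and are induced by metals, glucocorticoids and cytokines, were far above WT: Mt1 had 1852 and 32941 (17.8-fold higher), with another probe set at 2.37, and Mt2 2193 and 20619.7 (9.40-fold higher). Most targets of the antioxidant factor NRF2 did not share this: Gclc lay at -0.53 and Hmox1 at 0.47. Nqo1, a quinone reductase, was 2.27-fold higher at 230.4 against 524, and Osgin1 4.26-fold lower at 6155 against 1446.

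Immediate early and stress genes, which answer within minutes to hours to many stimuli, differed in both directions. Egr1 was 4.94-fold lower at 4023 against 814, Ier2 2.37-fold lower at 1494 against 629.6, and Phlda1 5.86-fold lower at 11128 against 1901. The transcription factor Klf6 was 3.30-fold higher at 164 against 542, with other probe sets at 0.07 to 1.99. Cdkn1a, the cell cycle inhibitor p21, was 4.38-fold higher at 183 against 803, with another probe set at 0.37, and Gadd45a 3.56-fold higher at 182 against 649. Tnfaip3, an inhibitor of NF-kB signalling, was at least 4.39-fold higher at 81.7 against 375. Over the 26 genes 5 were higher, 4 lower and the median was 0.16, and Fos was level at 298 and 306. Interferon-induced genes had 1 of 24 higher, Ubd, a ubiquitin-like protein, at 76.0 against 732 (at least 8.58-fold higher), and 2 lower, Irf7 (2.46-fold lower) and Ifi47 (2.21-fold lower), with a median of -0.19. Of 16 cell cycle genes 1 was at 2-fold, Mcm2, at 211 against 498, with another probe set at 0.42, and the median was 0.12. Beside the counts of these lists, 3.94% of all genes were 2-fold higher and 3.47% lower.

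Markers of other liver cells were higher in part. In bulk tissue more cells of a type and more RNA per cell cannot be told apart, and whether cell makeup bears on the results above was not tested. Of 24 measured Kupffer cell and macrophage markers, 6 stood above WT at 2-fold and none below. Their median was 0.55 and their summed signal was 32825 in WT and 47441 in the mutant. Markers of resident Kupffer cells did not all lie the same way. Clec4f, Timd4, Marco and Cd163 were the only 4 measured members below 0, at -0.40, -0.74, -0.77 and -0.69. The other 20 lay above 0, with Adgre1 (F4/80) at 0.19. Lgals3, galectin 3, went from 298 to 2084 (log2 ratio 2.81), Gpnmb, a glycoprotein of lipid-laden macrophages, from 60.8 to 522 (at least 6.11-fold higher), and the elastase Mmp12 from 18.3 to 544 (at least 6.38-fold higher). Tyrobp, an adaptor of activating receptors, was 2.77-fold higher at 723 against 2002. Stellate cell and matrix markers had 2 of 21 higher and a median of 0.48, with a summed signal of 21244 against 33268. Col1a2 and Col3a1 lay at 0.84 and 0.77, and Pdgfrb was 2.19-fold higher at 341 against 745, while Acta2, which marks activated stellate cells, lay at -0.22.

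Among neutrophil markers, the calprotectin subunits S100a8 (97.7 against 887) and S100a9 (84.6 against 542) were 9.08-fold higher and at least 6.35-fold higher. The granule genes Elane and Mpo were under the floor on both arrays. Other granule genes were under 2-fold and dim: Ngp had 121 and 210, Camp 27.6 and 135, and Ltf 115 and 64.1. The summed signal of the 8 measured markers was 859 in WT and 2212 in the mutant. Their median log2 ratio was 0.36, with 5 above 0 and 3 below. Lymphocyte markers were mostly under the floor, with 5 of 15 measured, 1 of them higher and a median of 0.01. Sinusoidal endothelial markers had 2 of 14 higher and a median of 0.12, with Lyve1 at 478 against 1714 (3.58-fold higher). Bile duct markers had a median of -0.49 (above 0 with the floor at the 75th percentile) and 2 of 7 lower: Dmbt1, a mucosal scavenger receptor protein, at 699 against 17.0 (at least 8.20-fold lower), and Epcam at 185 against 79.4 (at least 2.17-fold lower), with another probe set of Epcam at -0.20. Of these 7 markers 3 lay above 0, with Krt18 at 0.52, and 4 below. Their summed signal was 16126 in WT and 20467 in the mutant. Adipocyte markers had a median of 1.76 over 4 measured genes (0.10 in the lowest of the other settings), of which Cidec, Pparg and Fabp4 were higher. Adipoq, Lep and Retn, which define fat cells, were under the floor on both arrays, and Lipe lay at -0.03. The hepatocyte markers had a median of -0.27 and a summed signal of 614995 against 513649, beside the -0.15 of all genes over 20000. Of the pancreas markers 4 were measured, and 1 was lower at 2-fold, Cela1, an elastase, at 4423 against 1035. The measured red blood cell markers Hbb-b2 and Alas2 were 2.61-fold lower and 2.52-fold lower, but another probe set of Hbb-b2 lay at 0.22.

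Other genes with large ratios or bounds have not been described above. Ly6d, a surface protein of the Ly6 family, went from 130.3 to 3964 (30.4-fold higher), and Mfsd2a, a lysophospholipid transporter induced by fasting, from 235 to 6488 (27.6-fold higher). Rgs16, an inhibitor of G protein signalling, was 11.6-fold higher at 271 against 3143, with other probe sets at 1.09 to 4.15, and the uncharacterised 2010003K11Rik 12.1-fold higher at 291 against 3514. Where WT was under the floor, Osbpl3, an oxysterol-binding protein relative, was at least 15.9-fold higher at 1353 in the mutant, and Rad51b, a recombination factor, at least 13.8-fold higher at 1178. The monocarboxylate transporter family member Slc16a5 was at least 9.69-fold higher at 80.4 against 826. On the lower side, Avpr1a, the vasopressin receptor of liver, was 8.49-fold lower at 998 against 118, and Slc22a7, an organic anion transporter, 8.75-fold lower at 3024 against 346. Cdh1, the adhesion protein E-cadherin of periportal hepatocytes, was 8.07-fold lower at 3061 against 379.5, and Onecut1, the liver factor HNF6, 6.83-fold lower at 1625 against 238. The dehydrogenase Sdr9c7 was 8.13-fold lower, and Susd4, a complement inhibitor on the male-biased list, 8.75-fold lower. With the mutant under the floor, the transcription factor Foxq1 was at least 8.59-fold lower from 733, the carboxylesterase Ces2b at least 8.41-fold lower from 717, the chitinase-like Chil4 at least 7.28-fold lower from 621, and the histone gene H2bc22, one of many near-identical copies, at least 4.91-fold lower from 418.

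The rat arrays gave the same comparison in animals that share no sample with the mice, again 1 array per group, with a floor of 96.5. Titles and source field of the rats disagree on the genotype, so the spelling Lepmkyo follows their descriptions and the design text. Here 436 of 9755 genes (4.47%) lay 2-fold or more from WT, 275 higher (2.82%) and 161 lower (1.65%). Matched by symbol, 8281 genes were measured in both species. Of the 308 that were higher in mice, 45 were also higher in rats, 14.6% against 2.77% of all matched genes, and of the 229 higher in rats these were 19.7%, against 3.72%. Of the 254 lower in mice, 21 were also lower in rats, 8.27% against 1.45%, which is 17.5% of the 120 lower in rats, against 3.07%. Opposite calls were fewer in number: 17 of the genes higher in mice were lower in rats (5.52%, against 1.45% of all matched genes), and 5 of those lower in mice were higher in rats (1.97%, against 2.77%).

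**Figure D5:**
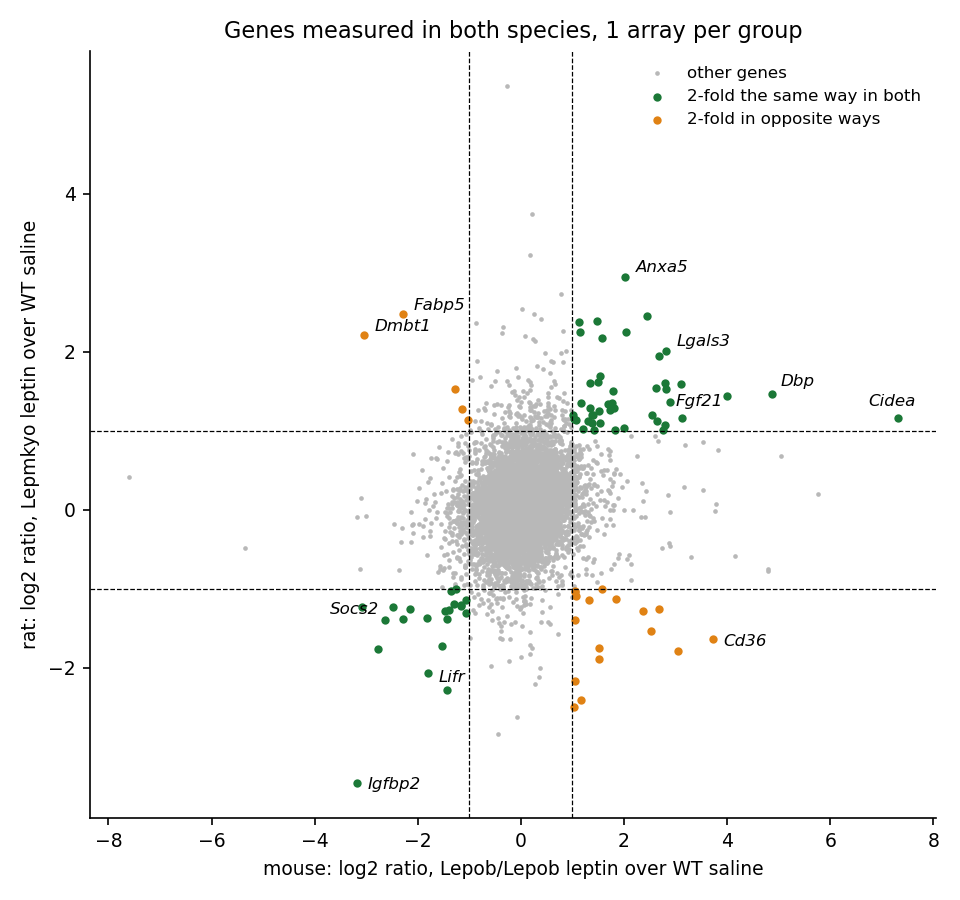
Log2 signal ratio of the leptin-injected mutant over WT saline in mice (horizontal) and rats (vertical) for the 8281 genes measured in both, 1 array per group and species. Green points are at least 2-fold the same way in both (45 higher and 21 lower), orange points 2-fold in opposite ways (17 and 5), and the dashed lines mark 2-fold. Igfbp2 is far below 0 in both, and Cd36, Fabp5 and Dmbt1 lie in opposite corners.

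The genes higher in both species included Cidea, Fgf21, Lgals3, Gpnmb, Mmp12, Dbp, Per2 and Vnn1, and the annexins Anxa2 and Anxa5, membrane-binding proteins of many cell types. The log2 ratio of Cidea was 7.31 in mice, a bound, and 1.16 in rats, and that of Fgf21 2.81 and 1.53. The genes lower in both included Igfbp2 at -3.18 in mice and -3.46 in rats, Socs2 at -2.49 and -1.23, Cish at -1.82 and -1.36, and Lifr, the receptor of leukemia inhibitory factor, at -1.81 and -2.07. The list medians differed between species in places. The cholesterol list, at -0.97 in mice, had a median of 0.15 in rats with none of 22 genes 2-fold lower, and the fatty acid synthesis list, at -0.26 in mice, had 0.63 with 8 of 19 higher. Female-biased genes, at 1.26 in mice, were at -0.81 over 13 genes in rats, with 6 lower, but these genes were chosen as female-biased in mice. Gluconeogenesis, with a median near 0 in mice, had 5 of 16 genes lower and a median of -0.47 in rats. Stellate and matrix markers had medians of 0.48 in mice and 0.80 in rats, with 2 of 21 genes higher in mice and 8 of 21 in rats. These are values side by side: the difference between the species was not tested, and it goes with strain, allele and array platform.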

How the data were processed

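Per the labels, RNA from Trizol extracts of liver was biotin-labelled for Affymetrix arrays. The authors' deposited values are linear signal intensities, and MAS5 is the tool that the submitters' processing notes name. It turns the probe pairs of each probe set into a single signal and sets all arrays to the same trimmed mean. Dim MAS5 signals are noisy, and detection calls were not used here, hence the floor. Depth has no counterpart on arrays; their number limits the precision.

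Of 45037 mouse probe sets, 34945 had exactly 1 gene symbol; 932 with several and 9160 with none were left out. Symbols of 34741 follow GRCm38.p6 by gene identifier, and 204 kept the annotated one. Rat symbols (20826 of 31042 probe sets) stayed as annotated, and species were matched by symbol.

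Log2 ratios of mutant over WT were taken from the intensities as deposited, with Python 3.11.15, numpy 2.4.6 and pandas 2.3.3, and checked on simulated data. No test across groups was run. The settings tried besides were quantile normalization, centring each array on its median, a floor at the 25th or the 75th percentile, the median of a gene's probe sets, no probe sets with suffixes that mark several possible targets, and log2 of signal plus floor.

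The members and the 40 gene lists were chosen with earlier results of these data known. Of 822 list genes, 690 were measured, 49 were under the floor on both arrays and 83 had no probe set named here. The rule for named genes took, per direction, the 15 largest ratios measured on both arrays and 8 bounds of at least 4-fold, brightest first. Both had to stay 2-fold under quantile normalization, without a conflicting probe set (1.5-fold or more in the opposite direction). It further took up to 4 members of each list, the member farthest in the opposite direction, and a fixed set including Lep, Lepr, Igfbp2 and Pck1. Further list members and the genes shared with rats were named after their values had been seen.

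Promoter windows are RefSeq's. In all, 17 letter patterns were searched on both strands, and the 2 shown were chosen after their matches had been seen. The others were the E-box CACGTG alone or as a pair 5 bases apart, the D-box TTATGTAA or TTANGTAA, the RORE core TAGGTCA or NAGGTCA, the SRE written TCACNCCAC or TCACCCCAC or its shorter form TCACNCCA, a direct repeat of AGGNCA with 1 base between, a STAT site (TTC and GAA, 3 bases apart), the metal response core TGCNCNC or TGCACNC, a glucocorticoid site (ACA and TGTNC, 3 bases apart), and an interferon site with TTTC repeated 2 bases apart.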

Additional observations from a re-analysis of the deposited data

Results flagged for a closer look

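Of the 199 named genes, 3 lay at least 2-fold from WT in one direction in mice and at least 2-fold in the other direction in rats in the leptin-injected mutant, each on 1 array per group, and the difference between the species was not tested. Cd36, the fatty acid translocase, had a log2 ratio of 3.73 in mice and -1.64 in rats, where its signals were 4551 in WT and 1463 in the mutant. Dmbt1, a mucosal scavenger receptor protein, had -3.04 in mice, a bound, and 2.21 in rats. Fabp5, the epidermal fatty acid binding protein, had -2.29 in mice and 2.48 in rats, at rat signals of 929 and 5166. Some genes described above but outside these 199 also lay 2-fold in opposite ways. Among them were Abcb1a, at 2.67 in mice, a bound, and -1.25 in rats, and Pex11a, at 1.58 and -1.01. Angptl8 lay at -1.28 in mice and 1.53 in rats. Each ratio is that of the brightest probe set of the gene in its species.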

How the results depend on the processing

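Leaving out replicates was not possible, as each group has 1 array. No paired analysis was possible because the groups share no replicate number beyond that 1 array and no test was run. Counts of mouse genes at 2-fold, 467 higher and 411 lower, became 762 and 238 with arrays centred on their median, 902 and 1309 with the floor at the 25th percentile, and 229 and 186 with it at the 75th, and stayed within 1.5 times in the other settings. In rats, 275 and 161 became 635 and 532 with the lower floor, 113 and 75 with the higher one, and 183 and 100 on log2 of signal plus floor. Of 39 list medians, 26 kept their sign in every setting. The other 13 had another sign in at least 1: fatty acid uptake, gluconeogenesis, amino acid, leptin and STAT3, acute phase, cytochromes, conjugation, bile acid, metallothionein and NRF2, lipoproteins, interferon, bile duct and sex-linked genes. Of 199 named genes, 135 were 2-fold apart, and 93 of these were so in every setting that measured them; of the other 42, 16 fell under 2-fold only with the floor at the 75th percentile. Under 2-fold were Saa1, Atf5 and Pcx after quantile normalization; Saa1, Ern1, Ifi47, Mlxipl, Mthfd2, Pdia6 and Slc30a10 with centred arrays; and Agpat4, Cyp7a1, Epcam, Fabp4, Hbb-b2, Lepr, Mcm2, Mthfd2, Pdia6, Ppara, Saa1 and Slc25a20 with the median over probe sets. Without suffix probe sets these were Agpat4, Fabp4, Mcm2, Saa1 and Vim, and on log2 of signal plus floor Agpat4, Ccl5, Epcam, Ern1, Hk2, Igfbp5, Irs2, Mcm2, Mthfd2, Pdgfrb, Scd2, Vim and Vwf. The floor at the 75th percentile took 21 under 2-fold, namely Abcc4, Abcd2, Ces2b, Chil4, Cry1, Dmbt1, Foxq1, Gpnmb, H2bc22, Hbb-b2, Igfbp5, Mcm2, Mmp12, Mvk, Pdgfrb, Per2, Per3, S100a9, Scd2, Trib3 and Ubd.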
